A study of Mus musculus with 12 samples.

Results

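The 35 genes described here encode the unfolded protein response and the integrated stress response of the liver: 15 chaperones and folding enzymes of the endoplasmic reticulum (ER), 6 genes of ER-associated degradation, 4 genes of the sensors and XBP1, and 10 genes of the ATF4 arm. They were chosen by symbol from a named list, with no threshold on a measured value, but with earlier results of these data known. All 35 were found among the 56107 genes of the expression table. Poly(A) RNA from the livers of 12 mice was sequenced, and the study asked how LIX1L acts on fatty liver disease under a high-fat diet. Wild-type (WT) littermates were fed a low-fat diet (LFD; mice 4, 7 and 8) or a high-fat diet (HFD; mice 1, 2 and 6). Global Lix1l knockouts (KO) received LFD (mice 2, 4 and 5) or HFD (mice 1, 5 and 6). All mice were 6 weeks old at the start and ate their diet for 12 weeks, and a number names a mouse within its own group only. Values are TPM, a transcript abundance divided by transcript length and rescaled so that each library has the same sum. TPM can therefore be compared between genes, but the number of reads behind each value is unknown.

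Secretory cells such as hepatocytes fold most of their exported proteins in the ER, with the help of chaperones led by BiP (Hspa5). When unfolded proteins accumulate, ATF6, IRE1 (Ern1) and PERK (Eif2ak3) signal from the ER membrane. ATF6 and spliced XBP1, the product of IRE1 signalling, raise chaperones and degradation factors. PERK phosphorylates eIF2-alpha, as do kinases that sense amino acid shortage, haem shortage or double-stranded RNA, and translation of ATF4 rises. ATF4 drives amino acid synthesis, aminoacyl-tRNA synthetases and Ddit3 (CHOP). Much of the regulation acts on splicing, cleavage, phosphorylation and translation, none of which gene-level TPM measures.

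Promoters of the 31 members that matched were read from RefSeq (build GRCm38.p6), as 250 bases before to 50 bases after each start, and searched for the elements that the stress transcription factors are known to bind. The ER stress response element was searched on both strands as CCAAT, 9 bases of any kind and CCACG, the arrangement that NF-Y and ATF6 are known to occupy. It was present in 7 of 13 chaperone genes (Calr, Canx, Creld2, Dnajc3, Hsp90b1, Hspa5 and Pdia6), in 2 of 5 degradation genes (Derl3 and Syvn1), in 0 of 3 sensor genes and in 0 of 10 ATF4-arm genes. Of 32851 promoters of the same length, 39 (0.119%) held it. The C/EBP-ATF response element that ATF4 binds, searched as TGATGNAA on both strands, was present in Asns, Chac1 and Trib3 of the ATF4 arm and in Herpud1, against 1304 promoters (3.97%) in all. TGACGTGG, the core of the XBP1-binding unfolded protein response element, was found in 0 of the 31 members and in 222 promoters (0.676%). The 4 promoters with an ER stress response element shown here belong to BiP, to Syvn1 and Creld2, which had the steepest increases among the called members between the genotypes on HFD and between diets in KO livers, and to Canx, which fell, and the 2 with a C/EBP-ATF element belong to ATF4-arm genes that were lower on HFD in KO livers. Each is written 5′ to 3′ on the gene's strand, and capitals mark the matched ends of the element, which may read in either direction.
Hspa5 promoter, chr2:34771840-34772139, plus strand: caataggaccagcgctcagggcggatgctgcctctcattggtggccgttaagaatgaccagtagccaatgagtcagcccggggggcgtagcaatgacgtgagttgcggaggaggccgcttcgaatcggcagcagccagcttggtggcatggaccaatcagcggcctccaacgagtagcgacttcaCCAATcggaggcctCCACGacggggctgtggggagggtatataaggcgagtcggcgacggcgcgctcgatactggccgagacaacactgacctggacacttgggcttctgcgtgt
Creld2 promoter, chr15:88819396-88819695, plus strand: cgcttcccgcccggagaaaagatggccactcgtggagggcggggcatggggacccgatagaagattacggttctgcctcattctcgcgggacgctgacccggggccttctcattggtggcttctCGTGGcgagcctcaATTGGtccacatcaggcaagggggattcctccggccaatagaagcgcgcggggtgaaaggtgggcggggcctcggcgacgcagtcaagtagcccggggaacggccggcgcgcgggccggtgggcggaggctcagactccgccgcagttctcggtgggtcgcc
Syvn1 promoter, chr19:6046326-6046625, plus strand: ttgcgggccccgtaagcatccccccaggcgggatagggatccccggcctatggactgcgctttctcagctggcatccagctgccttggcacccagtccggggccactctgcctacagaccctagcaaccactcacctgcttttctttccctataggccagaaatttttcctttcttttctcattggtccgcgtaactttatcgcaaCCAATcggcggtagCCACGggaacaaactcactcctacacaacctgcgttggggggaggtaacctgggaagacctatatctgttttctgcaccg
Canx promoter, chr11:50325624-50325923, minus strand: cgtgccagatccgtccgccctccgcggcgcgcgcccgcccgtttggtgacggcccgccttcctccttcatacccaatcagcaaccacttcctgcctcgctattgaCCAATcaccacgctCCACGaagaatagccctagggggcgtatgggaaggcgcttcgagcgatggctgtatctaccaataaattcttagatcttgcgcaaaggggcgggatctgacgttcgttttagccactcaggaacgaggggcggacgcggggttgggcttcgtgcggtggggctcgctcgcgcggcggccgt
Asns promoter, chr6:7693160-7693459, minus strand: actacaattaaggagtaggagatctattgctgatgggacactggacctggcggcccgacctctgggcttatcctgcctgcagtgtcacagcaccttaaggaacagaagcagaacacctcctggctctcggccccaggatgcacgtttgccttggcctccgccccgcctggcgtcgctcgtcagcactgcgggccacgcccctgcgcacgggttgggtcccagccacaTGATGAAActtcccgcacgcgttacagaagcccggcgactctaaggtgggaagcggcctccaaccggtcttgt
Trib3 promoter, chr2:152344011-152344310, minus strand: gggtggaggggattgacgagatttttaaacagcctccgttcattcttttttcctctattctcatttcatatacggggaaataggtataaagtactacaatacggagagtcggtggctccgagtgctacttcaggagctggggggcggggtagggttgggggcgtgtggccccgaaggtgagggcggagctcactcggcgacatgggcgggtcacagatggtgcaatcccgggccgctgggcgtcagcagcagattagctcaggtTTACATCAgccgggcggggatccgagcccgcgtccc

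Some facts of the whole set of libraries bear on these genes. Lix1l did not separate the genotypes: it lay at 0.58 to 1.08 TPM in WT LFD, 0.90 to 1.73 in WT HFD, 0.21 to 0.78 in KO LFD and 0.15 to 1.92 in KO HFD, with the highest value in KO HFD mouse 1. The labels could thus not be checked from this gene, and KO below means a library labelled knockout. The 3 KO HFD livers stood apart from the other 9 on the first principal component of all genes, which held 38.7% of the variance. KO HFD mouse 1 had 22.6% of its TPM in mitochondrially encoded genes, against 7.53% to 12.6% in the other 11 libraries, and was the lowest KO HFD library for 78.9% of the 11980 genes tested. Genes were tested if they reached 1 TPM in at least 3 libraries. Differences are given with their standard error (SE) as differences in log2(TPM + 1), a scale that understates changes of genes of low TPM, and a gene was called at a limma adjusted p below 0.05 over the 11980 genes.

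Transcript levels of the members spanned more than 3 orders of magnitude. In WT LFD livers the protein disulfide isomerase P4hb had the highest mean, 478 ± 82.2 TPM (SD, n = 3), followed by the calcium-binding chaperone Calr at 248 ± 54.4, the HSP90 paralogue Hsp90b1 at 239 ± 62.0, the transcription factor Atf5 at 217 ± 53.0 and BiP (Hspa5) at 180 ± 65.9. The means of Calr, Hsp90b1, Atf5 and Hspa5 lay within 1 SD of their neighbours in this order. The sensors Atf6, Ern1 and Eif2ak3 lay far lower, at 5.02 ± 0.993, 2.79 ± 1.06 and 1.44 ± 0.508 TPM. At the low end, the glutathione-degrading enzyme Chac1 and the serine-synthesis enzymes Psat1 and Phgdh stayed under the limit for testing, so 32 of the 35 members were tested. Chac1 was at 0.08 to 0.38 TPM in WT LFD, 0.51 to 0.83 in WT HFD, 0.66 to 2.05 in KO LFD and 0.30 to 0.90 in KO HFD. Psat1 ranged from 0.12 to 1.11 TPM and Phgdh from 0 to 0.26, and 56.3% of the 31-base words of Phgdh are shared with the pseudogene Gm7901, so its level is uncertain.

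In 3 of the 4 groups the chaperones shared a highest or a lowest mouse. Their summed level was 2260, 1411 and 1512 TPM in WT LFD, 1949, 1977 and 3370 in WT HFD, 2045, 1354 and 3060 in KO LFD, and 2086, 3930 and 4334 in KO HFD, each in order of mouse number. The spread within a group was therefore wide, and WT HFD mouse 6 exceeded KO HFD mouse 1. All 15 chaperones were at their group's highest in WT LFD mouse 4, where 50.6% of all genes tested were highest, and all 15 were highest in WT HFD mouse 6, where 32.2% of all genes were. In KO HFD, 15 of 15 were lowest in mouse 1, as were 78.9% of all genes. KO LFD was less uniform: 11 of 15 were highest in mouse 5, where P4hb alone reached 1186 TPM, 3 in mouse 2 (Hspa5, Hyou1 and Manf) and 1 in mouse 4 (Creld2). The summed level of the ATF4 arm is given without the short Ddit3 gene model described below, whose values are uncertain, and is mostly Atf5 and Atf4. It was 266, 263 and 351 TPM in WT LFD, 153, 164 and 177 in WT HFD, 264, 364 and 355 in KO LFD, and 145, 179 and 245 in KO HFD. On HFD the mice of each genotype fell in the same order for both sums, and on LFD they did not. These are bulk livers, so fewer cells of a type and less RNA per cell cannot be told apart.

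**Figure D1:**
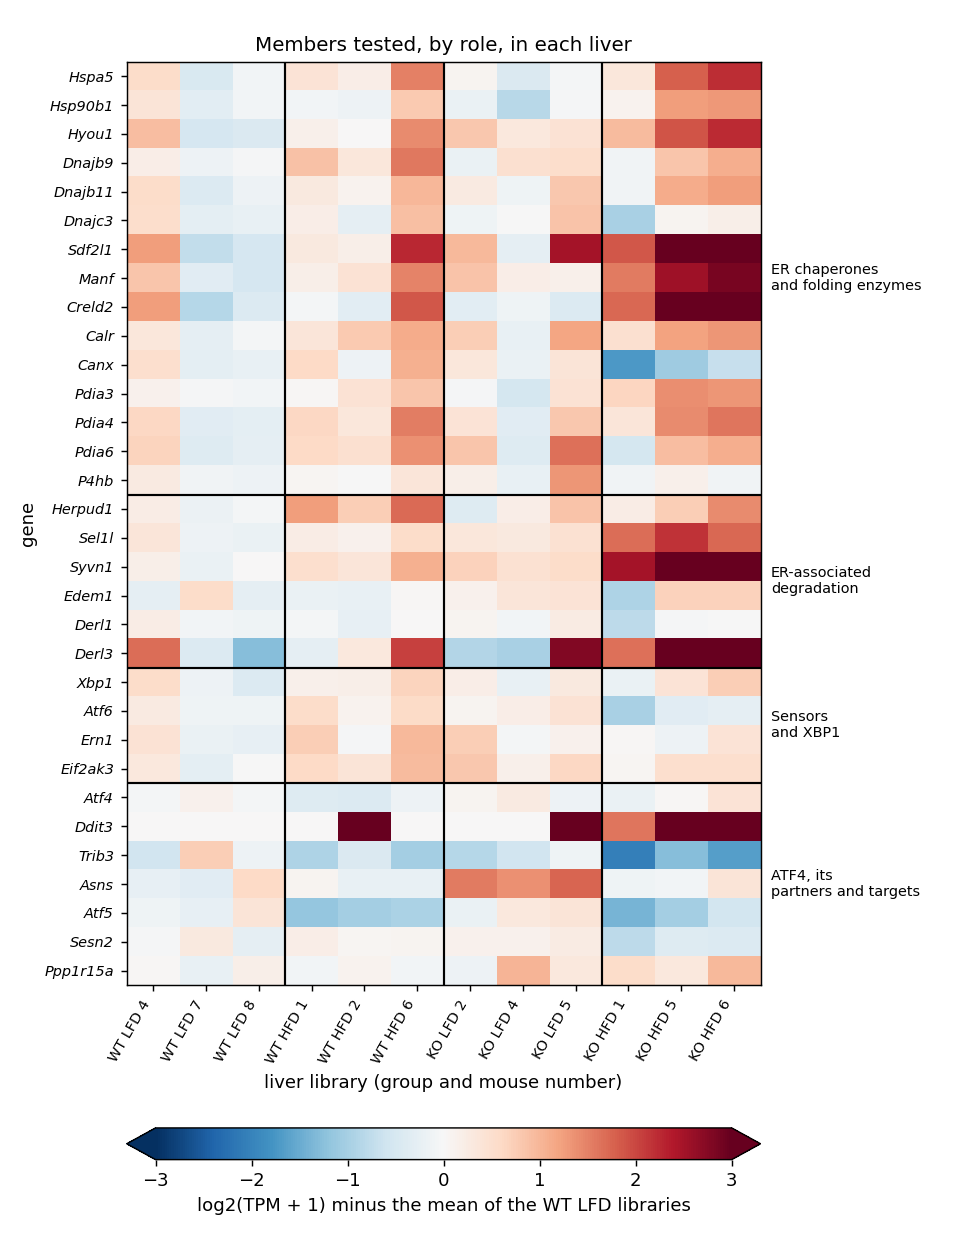
The 32 tested members by role (rows) in the 12 livers (columns, group and mouse number), coloured by log2(TPM + 1) minus the mean of the WT LFD libraries, with colours saturating at 3 in either direction. Most chaperones are red in KO HFD mice 5 and 6 and in WT HFD mouse 6, with Dnajc3 and P4hb near white in the 2 KO HFD livers, Syvn1 and Sel1l are red in the 3 KO HFD livers, and Canx and Atf6 are blue there.

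On HFD, KO livers had more transcript of the ubiquitin ligase Syvn1 and its adaptor Sel1l and of the secreted chaperones Manf and Creld2, and less of the membrane chaperone Canx, the sensor Atf6 and the stress-induced Sesn2, than WT livers. That made 4 members higher and 3 lower of 32 tested (21.9%), while 37.0% of all genes tested were called in this comparison, 11.2% higher and 25.8% lower. The share of members called was thus below that of all genes. The median log2 difference of the members was 0.27, beside −0.25 over all genes tested. A median-ratio rescaling of the libraries moved the all-gene median to 0.03 and the calls over all genes from 1347 higher and 3088 lower to 2562 higher and 2034 lower, and the members called to 11 higher and 3 lower. By role, 2 chaperones rose and 1 fell of 15 (median 0.30), 2 degradation genes rose and 0 fell of 6 (median 0.92), 0 sensor genes rose and 1 fell of 4 (median −0.37), and 0 rose and 1 fell of the 7 tested genes of the ATF4 arm (median 0.19), or 1 rose and 1 fell with the longer of the 2 Ddit3 gene models. Without KO HFD mouse 1 the members called were 10 higher and 2 lower, a count given here without the share of all genes called in that fit.

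Syvn1 (HRD1), the ER membrane ubiquitin ligase that marks misfolded proteins for the proteasome, had the steepest increase of the called members between the genotypes on HFD. Syvn1 (ENSMUSG00000024807, chr19:6046576-6053712, plus strand, GRCm38) measured 62.4, 109 and 113 TPM in the KO HFD livers and 14.9, 13.5 and 22.6 in the WT HFD livers. All 3 KO HFD values exceeded every other library of the study, of which the highest was WT HFD mouse 6. The group means of Syvn1 were 94.7 ± 28.0 and 17.0 ± 4.9 TPM (SD, n = 3 each), a 5.57-fold ratio and a log2 difference of 2.40 ± 0.25 (limma adjusted p = 0.000334).

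Sel1l, the adaptor that holds substrates at the HRD1 ligase, showed the same pattern. Sel1l (ENSMUSG00000020964, chr12:91806043-91849157, minus strand) measured 50.1, 71.0 and 51.9 TPM in KO HFD livers and 17.6, 16.7 and 22.4 in WT HFD livers. The groups did not overlap and KO HFD mouse 1 was not set apart. The ratio of the Sel1l means was 3.05 and the log2 difference 1.55 ± 0.21 (limma adjusted p = 0.000858). Syvn1 and Sel1l were called under all 22 alternatives, those that leave out each library included. The 4 other degradation members were not called: the log2 difference was 2.31 ± 1.06 for the retrotranslocation factor Derl3 (limma adjusted p = 0.105), 0.28 ± 0.38 for the mannosidase-like Edem1, −0.18 ± 0.22 for Derl1 and −0.44 ± 0.37 for Herpud1, which assembles the ligase complex. Derl3 measured 8.90, 45.0 and 35.8 TPM in KO HFD and 1.65, 2.93 and 12.2 in WT HFD, and the groups overlapped.

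Manf, a secreted ER-resident factor released under stress, measured 229, 458 and 565 TPM in KO HFD livers and 87.4, 104 and 219.9 in WT HFD livers. The lowest KO HFD liver lay just above the highest WT HFD liver. The ratio of the Manf means was 3.04 and the log2 difference 1.62 ± 0.45 (limma adjusted p = 0.0178). Leaving out WT HFD mouse 1 or 2 or KO HFD mouse 5 or 6 ended that call, with adjusted p up to 0.0759. Of the exonic bases of Manf, 8.85% overlap antisense genes, and no source used here says whether strand was used in counting.

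Creld2, a small secreted disulfide isomerase, measured 71.9, 177 and 209 TPM in KO HFD and 20.3, 16.8 and 79.9 in WT HFD. The groups overlapped, because WT HFD mouse 6 exceeded KO HFD mouse 1. The ratio of the Creld2 means was 3.91 and the log2 difference 2.16 ± 0.63 (limma adjusted p = 0.0215). The call was lost without WT HFD mouse 1 or 2, without KO HFD mouse 5 or 6 and without the filter on low values, with adjusted p up to 0.0823.

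Canx (calnexin), the membrane lectin that retains glycoproteins for folding, went the other way. Canx (ENSMUSG00000020368, chr11:50293961-50325673, minus strand) measured 19.6, 31.3 and 40.6 TPM in KO HFD livers against 101, 60.4 and 141 in WT HFD livers. Every KO HFD value lay under every other library of the study, the lowest of which was WT LFD mouse 7 at 54.7 TPM. The Canx mean was 3.31-fold lower, with a log2 difference of −1.67 ± 0.35 (limma adjusted p = 0.00546), and was called under all 22 alternatives. Calr, the soluble lectin that shares the calnexin cycle, measured 343, 562 and 616 TPM in KO HFD and 314, 424 and 529 in WT HFD (log2 difference 0.25 ± 0.36). Pdia3, the isomerase that works with both lectins, measured 269.9, 458 and 434 TPM against 176, 236 and 309 (log2 difference 0.68 ± 0.29, limma adjusted p = 0.0849). Canx and its partners thus had differences of opposite sign in these livers, although the difference between the genes was not itself tested.

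BiP (Hspa5), the master chaperone, was not called between the genotypes on HFD. Hspa5 measured 217, 595 and 806 TPM in KO HFD and 228, 197 and 493 in WT HFD, so KO HFD mouse 1 lay among the WT livers. The log2 difference was 0.74 ± 0.48 (limma adjusted p = 0.233). Over the 22 alternatives the log2 difference ranged from 0.36 to 1.30, with limma adjusted p up to 0.583, and 3 of them called Hspa5. Without KO HFD mouse 1 the log2 difference became 1.30 (limma adjusted p = 0.0385), and with median-ratio scaling 1.12 (limma adjusted p = 0.0426). Hsp90b1, Hyou1 and Pdia3 likewise passed the threshold under both of those alternatives and not in the test of all 12 libraries. The other chaperones not called had log2 differences from −0.51 for the co-chaperone Dnajc3 to 1.88 ± 0.78 for the BiP-complex member Sdf2l1 (limma adjusted p = 0.0752), and the highest adjusted p was that of P4hb at 0.733.

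Among the sensors, Atf6 was lower in KO HFD livers and the others were not called. Atf6 (ENSMUSG00000026663, chr1:170704674-170867771, minus strand) measured 2.03, 3.73 and 3.99 TPM in KO HFD against 7.73, 5.38 and 7.95 in WT HFD, and the groups did not overlap. Its mean was 2.16-fold lower, with a log2 difference of −0.93 ± 0.23 (limma adjusted p = 0.0102), called under all 22 alternatives. Xbp1, the transcription factor that IRE1 activates by splicing, measured 61.0, 95.0 and 118 TPM in KO HFD and 78.9, 79.8 and 112 in WT HFD, with a log2 difference of −0.02 ± 0.30. Ern1 and Eif2ak3 had log2 differences of −0.46 ± 0.31 and −0.28 ± 0.24.

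In the ATF4 arm on HFD, Sesn2, which restrains the growth kinase mTORC1, was called lower, and no other gene of the arm was called with the short Ddit3 model (the longer one, described below, was called higher). It measured 0.64, 1.15 and 1.11 TPM in KO HFD and 2.25, 1.95 and 1.96 in WT HFD, without overlap. Its mean was 2.12-fold lower, with a log2 difference of −0.64 ± 0.18 (limma adjusted p = 0.0182), and the call was lost without WT HFD mouse 1 or KO HFD mouse 1, with adjusted p up to 0.0706. Atf4 itself measured 50.8, 60.1 and 78.4 TPM in KO HFD and 44.9, 44.0 and 52.7 in WT HFD, with a log2 difference of 0.39 ± 0.19 (limma adjusted p = 0.126). Atf4 was called higher under 5 of 22 alternatives, with a lowest limma adjusted p of 0.00607, under median-ratio scaling. The others were quantile normalization, array weights, leaving out mitochondrially encoded genes and leaving out KO HFD mouse 1. Its log2 difference ranged from 0.23 to 0.77 over all alternatives. Asns, the asparagine synthetase, lay at 0.46, 0.50 and 1.09 TPM in KO HFD against 0.68, 0.36 and 0.36 in WT HFD. The pseudokinase Trib3 (log2 difference −0.87 ± 0.33, limma adjusted p = 0.0589) and the phosphatase subunit Ppp1r15a (0.63 ± 0.28, limma adjusted p = 0.0918) did not overlap between the groups but were not called.

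**Figure D2:**
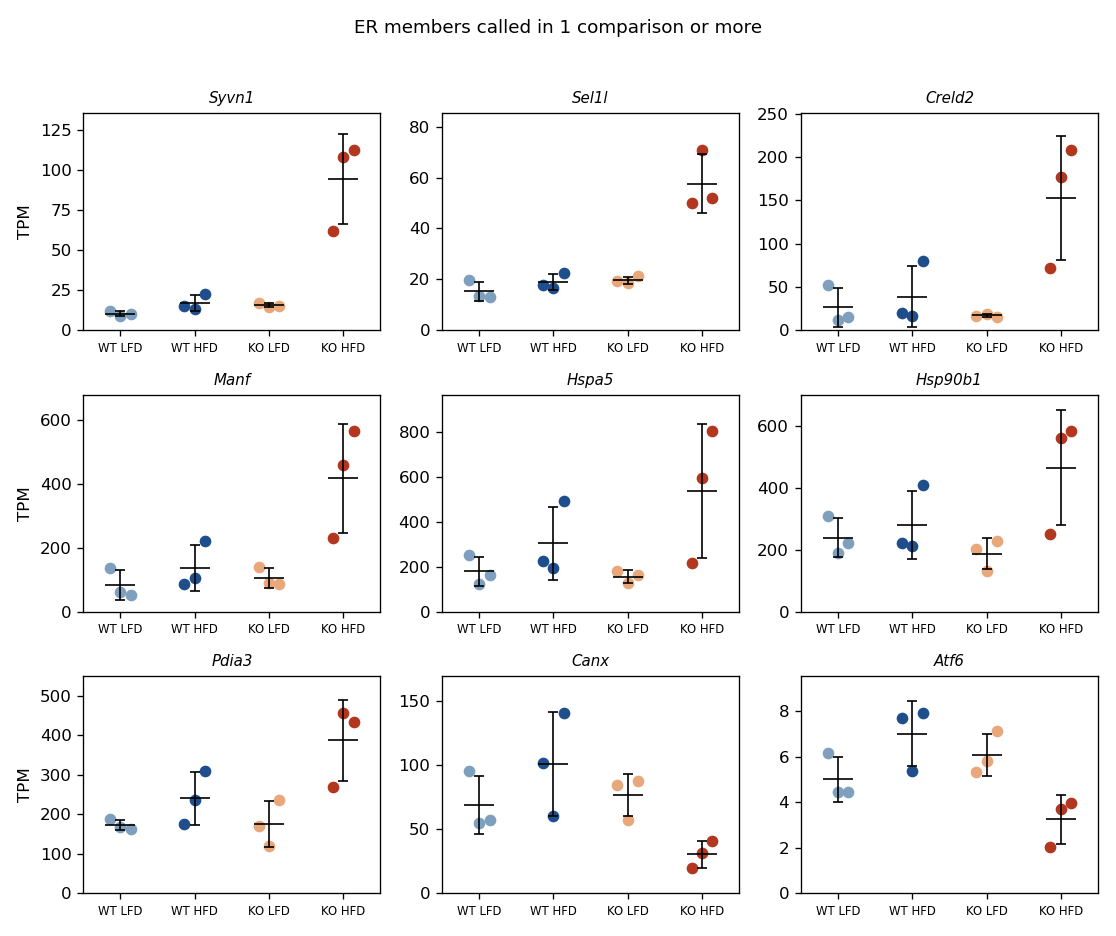
TPM in each liver (points, ordered by mouse number within a group) for 9 ER members called in 1 comparison or more, with group mean and SD (bars, n = 3 mice per group) and axes from 0. Syvn1 and Sel1l are high in all 3 KO HFD livers, Canx and Atf6 are low there, and for Hspa5, Hsp90b1 and Creld2 KO HFD mouse 1 lies near WT HFD livers.

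Diet was compared within each genotype to ask which members respond to HFD. In KO livers, 13 members were called, 7 higher and 6 lower of 32 (40.6%), while 23.8% of all genes tested were called, 6.73% higher and 17.0% lower. By role, 5 chaperones rose and 1 fell of 15, 2 degradation genes rose and 0 fell of 6, 0 sensor genes rose and 1 fell of 4, and 0 rose and 4 fell of the 7 tested genes of the ATF4 arm. With the longer Ddit3 model in place of the short one, 1 rose and 4 fell in that arm. The 4 include Asns, which was open to testing mainly through the KO LFD livers, as described below. The medians of the log2 differences were 0.83 for chaperones, 1.03 for degradation genes and −0.70 for the ATF4 arm, beside −0.22 over all genes. The difference between the roles was not tested. The KO HFD libraries also serve in the genotype comparison, so their values enter both. Median-ratio scaling moved the members called to 9 higher and 5 lower, and the calls over all genes from 806 higher and 2040 lower to 1726 higher and 1573 lower. Leaving out KO HFD mouse 1 kept 7 members higher and left 2 lower, again without the share of all genes in that fit.

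Creld2 had the steepest increase with HFD among the called members in KO livers. Creld2 (ENSMUSG00000023272, chr15:88819646-88826683, plus strand) measured 16.9, 19.3 and 15.6 TPM in KO LFD, and the 3 KO HFD values of 71.9, 177 and 209 lay far above them. The ratio of the Creld2 means was 8.84 and the log2 difference 2.94 ± 0.63 (limma adjusted p = 0.00995). Manf measured 140.4, 89.1 and 86.3 TPM in KO LFD and rose 3.97-fold on HFD (log2 difference 1.92 ± 0.45, limma adjusted p = 0.0140). Syvn1, at 17.3, 14.5 and 15.5 TPM in KO LFD, rose 6.01-fold (log2 difference 2.47 ± 0.25, limma adjusted p = 0.000485), and Sel1l, at 19.2, 18.7 and 21.3 TPM, rose 2.92-fold (1.49 ± 0.21, limma adjusted p = 0.00204). These 4 calls held under all 22 alternatives, and in none of the 4 genes did KO HFD overlap KO LFD.

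The increases of BiP and its partners with HFD in KO livers were less secure. Hspa5 measured 182, 127 and 164 TPM in KO LFD and rose 3.43-fold on HFD (log2 difference 1.59 ± 0.48, limma adjusted p = 0.0332). Hsp90b1, the ER form of HSP90, measured 203, 131 and 228 TPM in KO LFD and 251, 562 and 583 in KO HFD (log2 difference 1.25 ± 0.37, limma adjusted p = 0.0336). For both genes the groups did not overlap, but leaving out KO LFD mouse 2, 4 or 5 or KO HFD mouse 5 or 6 ended the call, with adjusted p from 0.0575 upward for Hspa5 and from 0.0502 upward for Hsp90b1. Of the exonic bases of Hsp90b1, 10.3% overlap an antisense gene. Pdia3 measured 169.8, 120 and 236 TPM in KO LFD and rose 2.21-fold (log2 difference 1.16 ± 0.29, limma adjusted p = 0.0181), a call lost without KO HFD mouse 5 (limma adjusted p = 0.0587). Canx measured 84.4, 57.6 and 87.5 TPM in KO LFD and fell by 1.33 ± 0.35 on the log2 scale with HFD (limma adjusted p = 0.0213), lost without KO LFD mouse 2 or 5 or KO HFD mouse 1 (up to 0.0785). Atf6 measured 5.32, 5.81 and 7.12 TPM in KO LFD and fell by 0.76 ± 0.23 (limma adjusted p = 0.0338), lost without KO LFD mouse 2, 4 or 5 or KO HFD mouse 1 (up to 0.109). A fit of the 2 KO groups alone ended the calls of Hspa5, Hsp90b1, Pdia3, Canx and Atf6 (limma adjusted p from 0.0522 to 0.0999), and testing without the filter on low values ended those of Hspa5, Hsp90b1, Canx and Atf6 (0.0541 to 0.0857).

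Asns had the steepest decrease with HFD in KO livers. Asns (ENSMUSG00000029752, chr6:7675169-7693254, minus strand) measured 3.68, 3.13 and 4.34 TPM in KO LFD and 0.46, 0.50 and 1.09 in KO HFD. Each KO LFD value also exceeded every WT library, of which the highest was WT LFD mouse 8 at 1.40 TPM. The KO HFD mean was 5.44-fold lower, with a log2 difference of −1.50 ± 0.25 (limma adjusted p = 0.00410), called under all 21 alternatives that kept the gene. Asns passed the limit for testing in 5 libraries, 3 of them KO LFD, so its test was open mainly because it was high there. Levels this low rest on few reads, and their number is unknown.

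Atf5, a transcription factor that ATF4 induces and that guards mitochondrial protein folding, was the member of this arm with the highest TPM. It measured 186, 265 and 278 TPM in KO LFD and 80.1, 105 and 146 in KO HFD, without overlap (2.21-fold lower, log2 difference −1.15 ± 0.26, limma adjusted p = 0.0107, and 0.0607 in a fit of the 2 KO groups alone). In WT livers it measured 195, 179 and 278 TPM on LFD and 94.2, 104 and 111 on HFD, also without overlap, with a log2 difference of −1.05 ± 0.26 that was not called (limma adjusted p = 0.126). All 6 HFD livers thus lay under all 6 LFD livers for Atf5, and the interaction was −0.11. Up to 4.11% of its exonic bases overlap antisense genes.

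Trib3, which damps AKT and ATF4 signalling, measured 2.57, 3.37 and 4.92 TPM in KO LFD and 0.58, 1.67 and 1.07 in KO HFD. It was 3.27-fold lower on HFD (log2 difference −1.13 ± 0.33, limma adjusted p = 0.0314), a call lost without KO LFD mouse 4 or 5 or KO HFD mouse 1 or 6 (up to 0.112), with median-ratio scaling (0.0530), without the filter (0.0801) and in a fit of the 2 KO groups alone (0.0552). Sesn2 measured 2.10, 2.10 and 2.35 TPM in KO LFD and fell by 0.70 ± 0.18 on the log2 scale with HFD (limma adjusted p = 0.0192), lost without KO LFD mouse 5 or KO HFD mouse 1 (up to 0.0595) and in a fit of the 2 KO groups alone (0.0703). Atf4 measured 62.1, 71.1 and 52.8 TPM in KO LFD and 50.8, 60.1 and 78.4 in KO HFD, with a log2 difference of 0.01 ± 0.19. The transcript of the regulator thus overlapped between diets where 4 genes of its arm were called lower. The longer Ddit3 model, described below, was called higher in the same comparison.

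**Figure D3:**
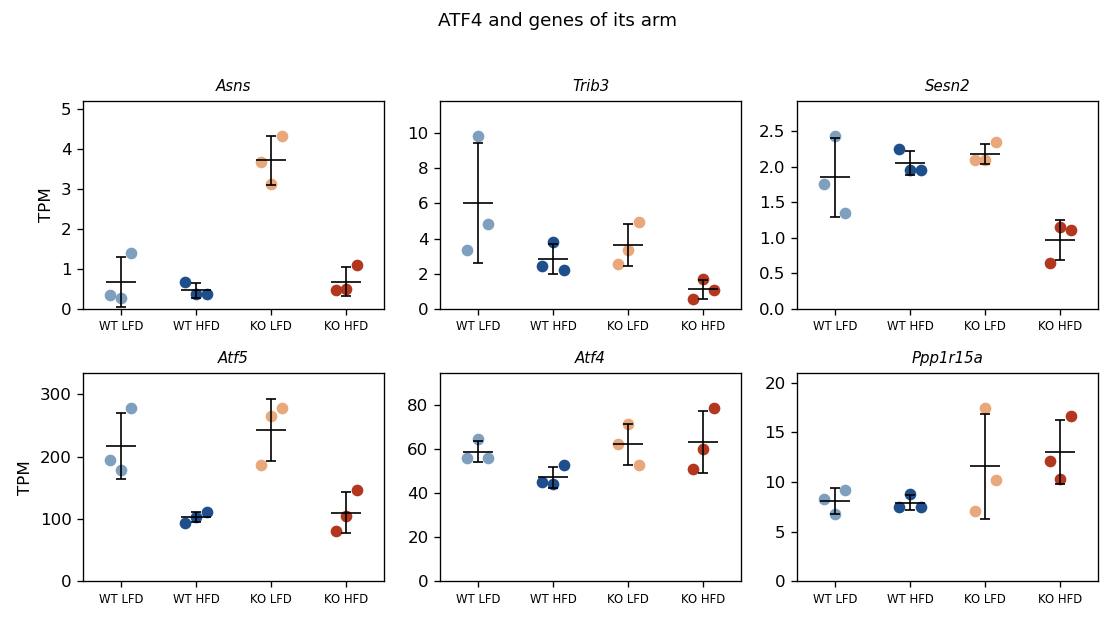
TPM in each liver (points, ordered by mouse number within a group) for Atf4 and 5 genes of its arm, with group mean and SD (bars, n = 3 mice per group) and axes from 0. Asns stands out in the 3 KO LFD livers, Atf5 is lower in the 6 HFD livers than in the 6 LFD livers, and Trib3 and Sesn2 are lowest in KO HFD.

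In WT livers, no member was called between HFD and LFD, and 0.309% of all genes tested were (37 of 11980). At an unadjusted p below 0.05 there were 6 of the 32 members (Herpud1, Atf5, Eif2ak3, Dnajb9, Syvn1 and Trib3), beside 1447 of all genes tested (12.1%). Herpud1, induced by both ATF6 and ATF4, measured 145, 111 and 119.9 TPM in WT LFD and 298, 208 and 408 in WT HFD, without overlap (log2 difference 1.23 ± 0.37). Dnajb9, a BiP co-chaperone, measured 18.9, 14.6 and 15.9 TPM against 31.2, 21.1 and 51.1 (log2 difference 0.94 ± 0.36, limma adjusted p = 0.314). All 15 chaperone estimates were above 0, with a median of 0.53 beside 0.08 over all genes. That median rested largely on WT HFD mouse 6: without it the median was 0.24 and the estimates of Creld2, Hsp90b1 and Dnajc3 were below 0. Array weights, which count less the libraries that deviate most over all genes, called 9 members higher and 2 lower, with 2003 genes higher and 595 lower in all.

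The called members had the following levels in WT livers on LFD. Syvn1 measured 11.8, 8.83 and 10.3 TPM in WT LFD, all under the WT HFD livers, and Sel1l 19.6, 13.4 and 13.0, which overlapped WT HFD. Hspa5 measured 253, 125 and 162 TPM in WT LFD and Hsp90b1 308, 189 and 221, with 221, 211 and 408 for Hsp90b1 in WT HFD. Manf measured 139, 61.1 and 54.1 TPM in WT LFD and Creld2 52.0, 11.35 and 15.7. For these 4 chaperones WT LFD mouse 4 exceeded WT HFD mice 1 and 2, so the diets overlapped in WT livers. Pdia3 measured 189, 168 and 163 TPM in WT LFD, Canx 95.3, 54.7 and 56.9, and Atf6 6.17, 4.45 and 4.45, and each overlapped its WT HFD values. Xbp1 measured 104, 63.6 and 53.25 TPM in WT LFD and 81.2, 60.4 and 86.3 in KO LFD, and in both genotypes the diets overlapped. In the ATF4 arm, Trib3 measured 3.34, 9.86 and 4.85 TPM in WT LFD and 2.45, 3.81 and 2.23 in WT HFD, and Sesn2 1.76, 2.44 and 1.35 in WT LFD, and the diets overlapped for both genes. Atf4 measured 56.0, 64.3 and 56.0 TPM in WT LFD, all above the WT HFD livers, with a log2 difference of −0.31 that was not called (limma adjusted p = 0.567).

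On LFD, Asns was the 1 member of 32 called between the genotypes (3.12%), beside 0.159% of all genes tested, 0.0918% higher. It reached the limit for testing mainly through the KO LFD livers, as described above, so this share is a description only. Asns was 5.55-fold higher in KO LFD than in WT LFD livers, where it measured 0.34, 0.27 and 1.40 TPM, with a log2 difference of 1.55 ± 0.25 (limma adjusted p = 0.0457). The groups did not overlap, but the call held under 5 of 21 alternatives and was lost when any of 10 of the 12 libraries was left out, all but WT LFD mouse 8 and KO LFD mouse 4, with adjusted p up to 0.255 over all alternatives. The 31 other tested members were not called, and 27 of the 32 estimates were above 0, with a median of 0.28 beside 0.07 over all genes.

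**Figure D4:**
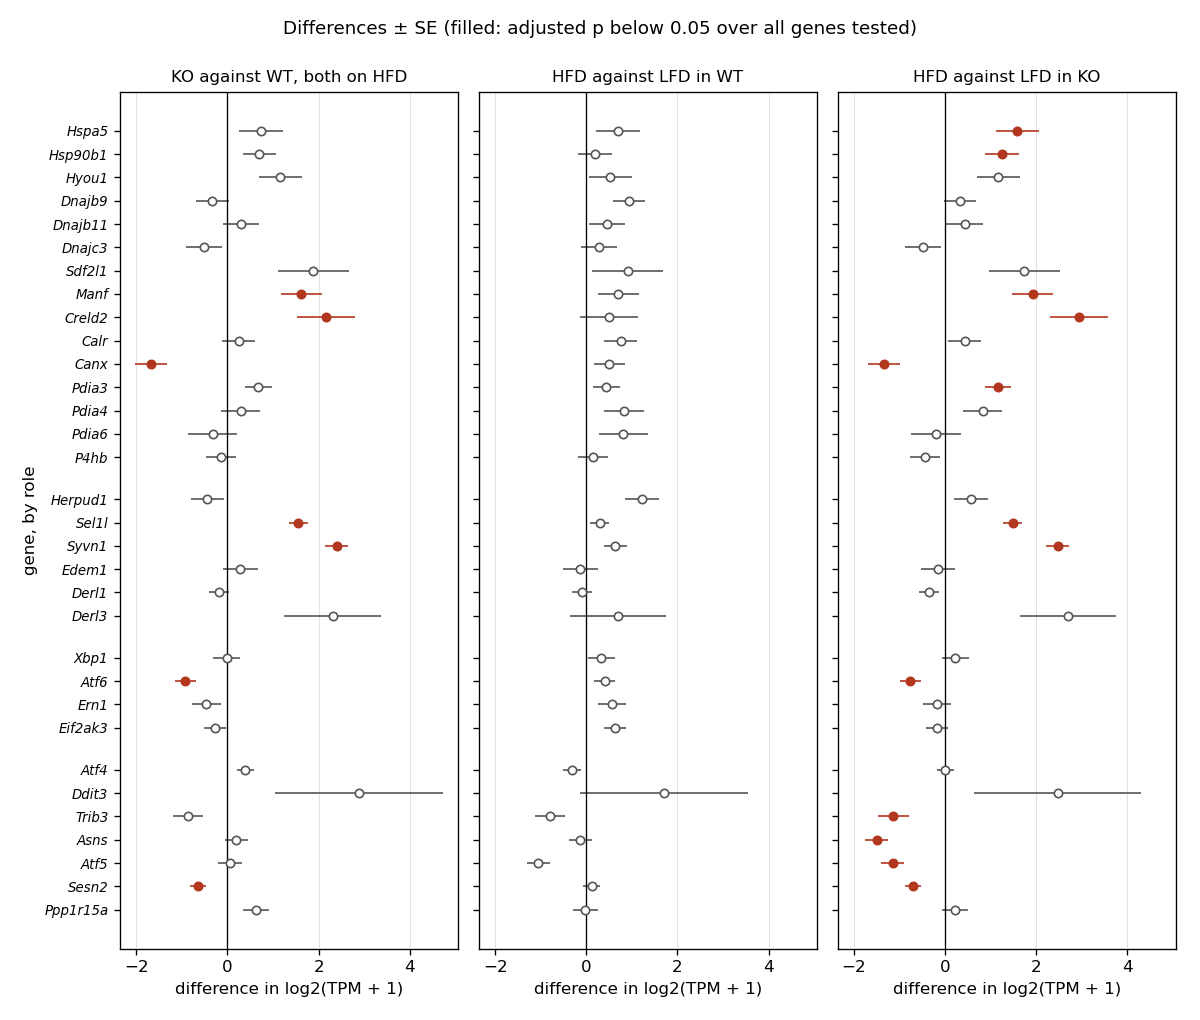
Difference in log2(TPM + 1) with its SE (horizontal bars) for the 32 tested members by role, between genotypes on HFD (left) and between diets in WT (middle) and KO livers (right), with filled red points for limma adjusted p below 0.05 over all genes tested. Syvn1, Sel1l, Manf and Creld2 are right of 0 and Canx and Atf6 left of 0 in both outer panels, and no point is filled in the middle one.

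The interaction of genotype and diet asks directly whether the diet difference was unlike in KO and WT livers. It was called for 5 members of 32 (15.6%), 2 higher and 3 lower, beside 9.66% of all genes tested, 2.54% higher and 7.12% lower. Syvn1 rose more with HFD in KO than in WT livers by 1.83 ± 0.36 on the log2 scale (limma adjusted p = 0.0210), and Sel1l by 1.19 ± 0.29 (limma adjusted p = 0.0344). The estimates for Canx (−1.84 ± 0.50, limma adjusted p = 0.0434), Atf6 (−1.17 ± 0.32, limma adjusted p = 0.0452) and Asns (−1.37 ± 0.36, limma adjusted p = 0.0403) were below 0. For Canx and Atf6 the WT estimates with HFD were 0.51 and 0.41 and the KO differences −1.33 and −0.76, so the 2 genotypes had opposite signs. The Syvn1 call was lost without WT LFD mouse 8 (limma adjusted p = 0.0664) or WT HFD mouse 1 (0.0682). The calls of Canx and Atf6 were each lost without any 1 of WT LFD mice 7 and 8, WT HFD mice 1 and 6, KO LFD mice 2 and 5 and KO HFD mice 1 and 5, with adjusted p up to 0.112 and 0.118. The Asns call was lost without any of the same libraries or WT LFD mouse 4 (up to 0.109), and the Sel1l call without any of them but KO HFD mouse 1, or without WT HFD mouse 2 (up to 0.0990). Without the filter on low values all 5 calls were lost (0.0527 to 0.103). The Asns call was also lost with pseudocounts of 0.1 (0.0789) and 0.5 (0.0526). Asns was open to testing mainly through the KO LFD livers, where it was high, so its place among the 5 is a description only. The median interaction was −0.07 for the members and −0.31 for all genes, and median-ratio scaling moved them to 0.37 and 0.03, with 5 members higher and 3 lower.

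Ddit3 (CHOP), the transcription factor that links prolonged ER stress to cell death, has 2 gene models under its symbol, and they gave different results. The rule for repeated symbols took ENSMUSG00000116429 (chr10:127290829-127293753, plus strand), whose 105 exonic bases lie entirely inside the longer ENSMUSG00000025408 (chr10:127290774-127296288, 1713 exonic bases). The shorter model was listed at 0 TPM in 7 of 12 libraries and at 33.2 in WT HFD mouse 2, 80.9 in KO LFD mouse 5, and 2.03, 37.8 and 118 in KO HFD. It was called in no comparison. Reads from the shared bases cannot be told apart, so its values are uncertain, and 3 of the 5 libraries that took it past the limit for testing were KO HFD.

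The longer Ddit3 model, looked at after its values were seen, was detected in every library. It measured 7.31, 12.7 and 13.5 TPM in WT LFD, 12.1, 12.6 and 27.1 in WT HFD, 8.09, 11.8 and 4.55 in KO LFD, and 21.8, 52.6 and 43.5 in KO HFD. KO HFD lay above KO LFD without overlap and overlapped WT HFD through WT HFD mouse 6 and KO HFD mouse 1. Its log2 difference between diets in KO livers was 2.13 ± 0.42 (limma adjusted p = 0.00682), called under all alternatives, with adjusted p up to 0.0382. Between the genotypes on HFD the log2 difference was 1.15 ± 0.42 (limma adjusted p = 0.0486), which was lost without the filter (0.110), with pseudocounts of 0.1 (0.0541) and 0.5 (0.0513), in a fit of the 2 HFD groups alone (0.0567) and without WT LFD mouse 7 or 8, WT HFD mouse 1 or 2, KO LFD mouse 2 or KO HFD mouse 5 or 6 (up to 0.159), and the interaction was 1.60 ± 0.59 (0.0902). With this model in place of the shorter one, the members called were 8 on HFD between genotypes and 14 between diets in KO livers.

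**Figure D5:**
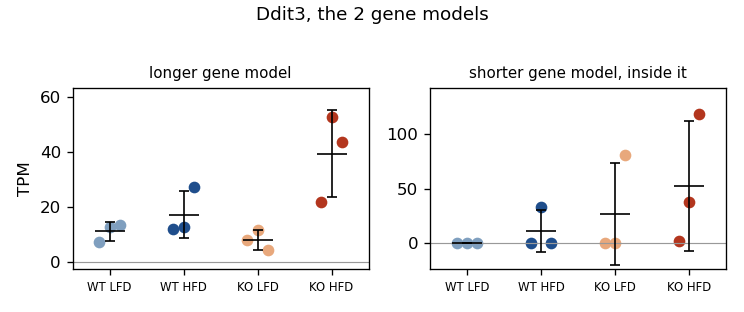
TPM of the 2 gene models of Ddit3 in each liver (points, ordered by mouse number within a group), with group mean and SD (bars, n = 3 mice per group, some SD bars reaching below 0). The longer model is present in every library and is at 21.8 to 52.6 TPM in KO HFD, while the shorter one is at 0 in 7 of the 12 libraries.

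Members that carry the same promoter element did not move alike. The 9 members with the ER stress response element had log2 differences from −1.67 (Canx) to 2.40 (Syvn1) between the genotypes on HFD, with 2 called higher and 1 lower. Between diets in KO livers the same 9 ranged from −1.33 to 2.94, with 4 called higher and 1 lower, and in WT livers from 0.19 to 0.81 with 0 called. Of all genes tested, 37.0% were called between the genotypes on HFD, 23.8% between diets in KO livers and 0.309% between diets in WT livers. Of the 4 members with the C/EBP-ATF element, 3 were tested, and between diets in KO livers Asns and Trib3 were called lower while Herpud1 had 0.57 ± 0.37 (limma adjusted p = 0.264). A match is a run of letters in a fixed window, and binding was not measured.

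A further 92 genes of the same pathways were read from lists chosen with results of these data known, and 86 of them were tested. Between the genotypes on HFD, 9 rose and 19 fell (32.6%, beside the 37.0% of all genes called). Of 30 other folding and translocation genes, 3 rose (the thioredoxin-like Txndc11, the glycoprotein folding sensor Uggt1 and the prolyl isomerase Fkbp11, by 0.90, 0.69 and 0.87 on the log2 scale) and 2 fell (the ER reductase Dnajc10 and the translocon subunit Ssr3, with −0.59 and −0.65). Of 17 other degradation genes, 1 rose, the selenoprotein Selenok (1.02), and 6 fell, among them the extraction ATPase Vcp (−1.19) and the lectin Erlec1 (−1.14). Syvn1 and Sel1l were therefore not joined by most of the degradation genes listed. Of 15 other regulators, 0 rose and 7 fell, led by the haem-regulated eIF2-alpha kinase Eif2ak1 (−1.18), the IRE1 inhibitor Tmbim6 (−1.22) and eIF2-alpha itself (Eif2s1, −0.99), together with the site-1 and site-2 proteases that cleave ATF6, Mbtps1 (−0.75) and Mbtps2 (−0.70). Of 24 tested targets of ATF4, 5 rose, including the DNA-damage and stress gene Gadd45a (1.65), the tryptophanyl-tRNA synthetase Wars (0.92) and the tRNA exporter Xpot (0.66), and 4 fell, including the transsulfuration enzyme Cth (−1.09).

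Between diets in KO livers, 5 of the 86 rose and 20 fell (29.1%), beside 23.8% of all genes tested, 6.73% higher and 17.0% lower. The called ATF4 targets again went both ways. Gadd45a, Wars and Xpot rose by 2.02, 1.01 and 0.84 on the log2 scale, while Cth, the threonyl-tRNA synthetase Tars and the mTORC1 inhibitor Ddit4 had −1.61, −1.47 and −1.32. None of the 86 was called on LFD or between diets in WT livers by limma, with 12 and 5 at an unadjusted p below 0.05, beside 12.7% and 12.1% of all genes tested. The hepatokine Gdf15, a known ATF4 target, measured 2.96, 3.41 and 91.1 TPM in KO HFD and 14.8, 24.0 and 14.8 in WT HFD, with a log2 difference of −0.65 ± 0.96 that was not called. That value depended on which KO HFD mouse was left out. Without mouse 6 the log2 difference was −2.14 ± 0.46 (limma adjusted p = 0.00708). Without mouse 1 it was 0.13 ± 1.01 (limma adjusted p = 0.937) and without mouse 5 0.05 ± 1.01 (0.976). No other alternative called Gdf15 in this comparison. Fgf21, another hepatokine induced by ATF4, measured 8.64, 5.06 and 24.9 TPM against 8.94, 10.96 and 9.28, with 0.10 ± 0.64, and with −0.48 ± 0.64 without KO HFD mouse 6 (limma adjusted p = 0.568).

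Markers of some cell types moved with genotype in the same libraries. On HFD all 8 endothelial markers and 5 of 8 Kupffer cell markers were called higher in KO livers and 5 of 8 hepatocyte markers lower. Of the tested stellate cell and matrix markers 2 of 7 were called higher, and of the tested cholangiocyte markers 2 of 3 lower. No tested T and NK cell or neutrophil marker was called. Of all genes tested, 11.2% were called higher and 25.8% lower in this comparison. The summed endothelial markers ranged from 20.7 to 36.0 TPM in WT HFD and from 69.0 to 89.8 in KO HFD, and from 36.2 to 48.8 in WT LFD and 72.8 to 79.7 in KO LFD. The summed Kupffer cell markers ranged from 20.1 to 64.9 TPM in WT HFD, from 57.9 to 368 in KO HFD, from 51.9 to 97.5 in WT LFD and from 125 to 405 in KO LFD. The summed hepatocyte markers ranged from 58308 to 66579 TPM in WT HFD, from 36719 to 46344 in KO HFD, from 55103 to 80658 in WT LFD and from 35537 to 44294 in KO LFD. On LFD these sums did not overlap between the genotypes, but 0 of 43 tested markers were called, beside 0.159% of all genes tested. On HFD the Kupffer cell sums overlapped. The nuclear RNAs Malat1 and Neat1 summed to 99.5 to 322 TPM in KO HFD against 14.5 to 69.3 in the other 9 libraries. Plasma cells are rich in Derl3, Sdf2l1 and Creld2. The summed B and plasma cell markers ranged from 51.0 to 87.6 TPM in KO HFD and from 15.1 to 23.3 in WT HFD. On LFD they ranged from 54.8 to 336 TPM in KO livers and from 19.7 to 119 in WT livers, so they were not higher in KO HFD than in KO LFD. Of these 7 markers 3 were tested, all 3 had estimates above 0 between the genotypes on HFD, and 1 was called higher. Another of the 7, Mzb1, was listed at 0 in all 3 KO HFD livers. Of 5 markers of pancreas, another ER-rich tissue, Prss1, Cpa1 and Ins2 were listed at 0 in every library and Pnlip in all but KO HFD mouse 1 (0.09 TPM), while Cela1 was at 15.85 to 79.6 TPM and overlapped between the genotypes on HFD. The part of cell make-up and of nuclear RNA in the differences of the stress genes was not tested.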

How the data were processed

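Livers of 12 mice were sequenced as poly(A) RNA. Per the submitters' processing notes, reads were processed with HISAT2 and StringTie on build mm10, while versions and strand setting were not given in the sources used here. TPM per gene was deposited as 1 table by the authors, which divides by transcript length and library total, so depth is unknown and no counting interval was computed. Knockout columns carry another abbreviation than the labels, and were matched through deposited group means, which differed from recomputed ones by at most 3.33e-05 TPM. Of the 56107 rows, 55141 were given a symbol by Ensembl identifier. For a repeated symbol the row with the highest mean TPM was kept.

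A gene was tested where 3 or more libraries reached 1 TPM (11980 genes, of them 32 members). The fit of log2(TPM + 1) used R 4.3.3 and limma 3.58.1: 1 mean for each of the 4 groups, 8 residual degrees of freedom, moderation by empirical Bayes along a trend in mean level, 2-sided tests, Benjamini-Hochberg adjustment over all genes tested and calls at adjusted p below 0.05. The p-values measure the spread between mice. The fit was tested on simulated data in which genes varied independently and each gene had the same spread in every library. That simulation cannot say how the fit does with a deviating library or with genes that move together. There were 22 alternatives, 12 of them leaving out a library, and the longer Ddit3 model was added after seeing the data. Shared sequence between genes was counted in 31-base words over GENCODE M21 gene models on GRCm38. Figures used matplotlib 3.10.9 in Python 3.11.15.

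The members and all gene lists were chosen with earlier results of these data known, so no list was tested as a set. Every library's value is given for members called in any comparison and for Hspa5, Xbp1, Atf4 and Ddit3, and of the other pathway genes at most 6 called genes per list and comparison are named, by lowest p. The values of Derl3, Calr, Herpud1, Dnajb9, Fgf21, Gdf15 and the pancreas markers were added after values were seen.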

Additional observations from a re-analysis of the deposited data

Results flagged for a closer look

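For 5 members the difference between diets was itself unlike in the 2 genotypes, by the interaction term of the limma fit over all 12 libraries. The diet difference in KO livers exceeded that in WT livers by 1.83 on the log2 scale for Syvn1 and by 1.19 for Sel1l, and the WT estimates were 0.64 and 0.30. It was below that in WT livers for Canx (−1.84), Atf6 (−1.17) and Asns (−1.37). For Canx and Atf6, the WT estimates of 0.51 and 0.41 were above 0 and were not called. For Asns the difference came with KO LFD values of 3.13 to 4.34 TPM, against 0.27 to 1.40 TPM in the other 9 libraries. Asns passed the limit for testing in 5 libraries, 3 of them KO LFD, so its call is a description only. The Syvn1 call held under 18 of 21 alternatives, and those of Sel1l, Canx, Atf6 and Asns under 12, 11, 11 and 8 of the alternatives run for them.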

How the results depend on the processing

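No single-gene difference changed sign while called: of 3463 values recomputed under the alternatives, 3279 stayed on the same side of the threshold, 109 fell short of it, 75 newly passed it and 0 reversed. Of 26 calls, 9 held under every alternative and 10 with every library left out in turn. The count of members called between the genotypes on HFD, 7, became 14 with median-ratio scaling, 12 with quantile normalization and 20 with array weights, which gave KO HFD mouse 1 a weight of 0.192 and mouse 5 a weight of 6.04. Leaving out 1 library gave 4 (without WT HFD mouse 1) to 12 (without KO HFD mouse 1). Between diets in KO livers, 13 became 8 without the filter on low values and 5 in a fit of those 2 groups alone, and ranged from 8 (without KO LFD mouse 5) to 13 over left-out libraries. The interaction count of 5 became 0 without the filter, 8 with median-ratio scaling and 10 with array weights, and ranged from 0 (without WT LFD mouse 8 or WT HFD mouse 1) to 5. The single call on LFD became 0 with a pseudocount of 0.1 or 0.5, without the filter, with a filter on a mean of 5 TPM (which removed Asns), in the fit of those 2 groups, with array weights, and in 10 of the 12 left-out fits (0 to 1). Between diets in WT livers 0 became 11 with array weights and stayed 0 with any library left out (0 to 0). Mouse numbers name separate animals, and libraries that share a number had deviations correlated at −0.26 to 0.10 over genes, so the numbers do not pair the samples. A fit with the number as a replicate block called 3 members in the interaction (not Canx or Atf6) and 0 on LFD, and not the longer Ddit3 model between the genotypes on HFD (limma adjusted p = 0.0577). Calls over all genes also moved with median-ratio scaling and array weights where given above. At the other settings the member counts stand here without the share of all genes, so they do not describe the members alone. Other causes of these changes were not tested. With 3 mice per group and unknown depth, a member not called is not shown to be unchanged.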
